A study of Mus musculus with 75 samples.

Results

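The spleen was compared between 22-month-old and 3-month-old C57BL/6 mice in bulk RNA sequencing libraries, 1 library per animal. The comparison rests on 5 of the 75 samples of the series, the spleens of aged mice 1, 2 and 3 and of young mice 1 and 3. The series profiled 11 tissues and, in a second experiment, the choroid plexus of surgically joined mice. All animals were wild type and untreated in the tissue experiment, and they were perfused with PBS before the organs were excised and snap frozen. The labels used here give no sex, and each library comes from 1 animal, so the spread between libraries includes the spread between mice. The comparison asks which genes of the spleen differ in level with age.

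The spleen has a white pulp of B cell follicles and T cell zones, a marginal zone that samples blood-borne antigen, and a red pulp in which macrophages take up old red cells and recycle their iron. In the mouse the red pulp also forms blood cells throughout life, so precursors of neutrophils, red cells and platelets sit beside mature lymphocytes. A neutrophil precursor makes its granule proteins in a fixed order: the azurophil or primary granules are filled first, the secondary and tertiary granules later, and the transcripts of both are largely gone from the mature cell. Plasma cells, which secrete antibody, collect in the red pulp.

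The values of each of the 5 libraries, summed over all transcript rows and divided by the value worth 1 read, came to 473458 to 1019874. This is a gauge of depth and not a count of reads, since a gene with several transcript rows enters more than once. Markers of the organ were present in all of them: Ms4a1, the B cell surface protein CD20, ran from 174.5 to 383.9, Cd3e, a chain of the T cell receptor complex, from 64.6 to 110.9, and Spic, a factor of red pulp macrophages, from 47.2 to 87.9, in normalised read signal. A sixth spleen library, of young mouse 2, stands apart and is given only as a check. Summed over a list of lung genes its level was 41117, against 344.1 to 429.3 in the other 5 libraries, and Sftpc, the surfactant protein of the alveolar lining, was at 8466 there against 9.25 to 17.99. Genes of the pancreas, which lies against the spleen, summed to 7951 in young mouse 3 (1.37% of that library) and to 23251 in young mouse 2, against 125.9 to 159.1 in the other 4, and were set aside before the fit.

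Of 10025 genes tested, 59 passed an adjusted p of 0.05 (0.589%), 47 higher in aged spleen (0.469%) and 12 lower (0.12%). Without adjustment, 645 genes were higher and 433 lower at a p under 0.05. The median log2 change over all genes tested was 0.01, and 50.9% of the genes were above 0. All 59 had aged libraries that did not overlap the young ones, a pattern that 14.4% of all tested genes showed upwards and 13.4% downwards. The library of young mouse 2, which took no part in the fit, was below every aged library in 43 of the 47 higher genes and above every aged library in 8 of the 12 lower genes. The number of calls depends on single libraries, and 12 of the 59 genes were called whichever of the 5 libraries was left out: C130026I21Rik, Wfdc17 and 10 genes of granulocytes, namely Ngp, Camp, Ltf, Lcn2, Chil3, Mpo, Prtn3, S100a8, S100a9 and Prg2.

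Among genes of neutrophil granules, 2 of 7 tested in the primary granule list and 5 of 16 in the later granule list rose in aged spleen. Ngp, Camp, Ltf, Lcn2 and Chil3 of the later granules and Mpo and Prtn3 of the primary granules were higher by log2 2.45 to 4.74, and none of the 7 had an aged library in the range of young mice 1 and 3. In bulk tissue, more cells of a type and more RNA per cell cannot be told apart, and this holds for every result that follows. The 250 bases upstream of 5 of these genes are printed to show the sequence in front of transcripts that rose together, from RefSeq promoter windows on GRCm38.p6, 5′ to 3′ on the strand of the gene. Capitals mark TTGCNNAA, a motif bound by C/EBP factors, and AGGAAG, the core of sites bound by ETS factors such as PU.1, each or its reverse complement.
Camp (chr9:109849457-109849706, minus strand): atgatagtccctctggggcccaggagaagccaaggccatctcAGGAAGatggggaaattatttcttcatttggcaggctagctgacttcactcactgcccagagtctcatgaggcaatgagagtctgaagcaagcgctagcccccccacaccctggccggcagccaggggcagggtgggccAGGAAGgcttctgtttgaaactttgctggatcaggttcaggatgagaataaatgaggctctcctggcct
Ngp (chr9:110419558-110419807, plus strand): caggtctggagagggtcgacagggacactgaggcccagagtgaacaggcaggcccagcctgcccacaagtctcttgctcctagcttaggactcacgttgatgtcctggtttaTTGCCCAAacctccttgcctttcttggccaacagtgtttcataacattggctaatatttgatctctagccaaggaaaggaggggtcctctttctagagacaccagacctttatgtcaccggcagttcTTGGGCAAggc
Ltf (chr9:111019042-111019291, plus strand): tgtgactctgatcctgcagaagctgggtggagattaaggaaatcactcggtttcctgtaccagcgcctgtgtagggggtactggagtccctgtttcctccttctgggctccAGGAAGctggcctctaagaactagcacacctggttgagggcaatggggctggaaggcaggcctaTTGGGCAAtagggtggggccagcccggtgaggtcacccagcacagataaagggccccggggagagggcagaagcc
Lcn2 (chr2:32387740-32387989, minus strand): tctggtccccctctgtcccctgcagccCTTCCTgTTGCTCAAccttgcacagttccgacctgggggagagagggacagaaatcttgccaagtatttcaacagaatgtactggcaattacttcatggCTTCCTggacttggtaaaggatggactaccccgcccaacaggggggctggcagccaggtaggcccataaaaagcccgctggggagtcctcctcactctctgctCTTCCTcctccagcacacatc
Mpo (chr11:87793534-87793783, plus strand): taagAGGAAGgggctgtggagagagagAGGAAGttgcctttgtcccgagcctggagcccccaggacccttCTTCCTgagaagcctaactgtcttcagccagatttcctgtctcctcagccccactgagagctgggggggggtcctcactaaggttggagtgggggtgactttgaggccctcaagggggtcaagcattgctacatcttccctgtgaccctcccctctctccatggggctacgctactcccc

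C/EBP and ETS factors are known regulators of granule genes. TTGCNNAA was found on either strand in front of Ngp, with 2 matches, and of Ltf and Lcn2, with 1 each, and not in these windows of Camp and Mpo. AGGAAG had 2 matches in front of Camp, 1 in Ltf, 3 in Lcn2 and 3 in Mpo, and none in Ngp, and no printed match overlaps another. The 7 granule genes named above were searched together with S100a8 and S100a9, and a gene was counted where any of its windows held a match. TTGCNNAA was so found for 4 of 9 genes, AGGAAG for 7 of 9, and ACCACA, a RUNX core searched as well, for 1 of 9. Of 32851 single promoter windows of the same length, 9.56% held TTGCNNAA, 29.5% AGGAAG and 14.0% ACCACA. A count per gene and a share per window are unlike measures where a gene has several windows. A match describes these letters only. The motifs were chosen after the genes were seen, so the counts carry no test.

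Among the later granule genes, Ngp (NM_008694), the neutrophilic granule protein, was at 152.0, 281.9 and 247.6 in aged mice 1, 2 and 3 and at 12.7 and 3.93 in young mice 1 and 3. The lowest aged library was thus far above the highest young one, and young mouse 2, at 6.402, lay with the other young mice. The change was log2 4.74 (SE 0.41, adjusted p = 0.000178), and the group means were 227.2 ± 67.3 (SD, n = 3) and 8.31 ± 6.20 (SD, n = 2). Camp (NM_009921), the antimicrobial cathelicidin, was at 60.8, 138.4 and 143.9 against 5.29 and 3.93, a change of log2 4.26 (SE 0.35, adjusted p = 5.38e-07). Aged mouse 1 was the lowest aged library for both genes.

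Ltf (NM_008522), lactoferrin, which binds iron, was at 42.3, 64.2 and 95.9 against 5.29 and 4.91 (log2 3.40, adjusted p = 1.23e-05). Lcn2 (NM_008491), lipocalin 2, which captures bacterial siderophores, was at 63.5, 114.5 and 93.5 against 3.17 and 9.82 (log2 3.71, adjusted p = 1.82e-05). Chil3 (NM_009892), a chitinase-like protein, was at 39.7, 88.1 and 44.4 against 7.41 and 10.8 (log2 2.45, adjusted p = 0.000892). The groups were apart for all 3 genes, but young mouse 2 was not with the other young mice: it had 20.005 for Ltf, 77.6 for Lcn2 and 177.6 for Chil3, in the library with the high lung genes. With that library added to the young group, the list had 2 called genes in place of 5. Of the list of secondary and tertiary granule genes, 16 members passed the filter on low values, 5 rose and all 16 had a change above 0, with a median of log2 1.62. With a library left out the median ran from log2 0.96 (without aged mouse 2) to 1.96 (without aged mouse 1), and it was 1.04 without aged mouse 3, where 13 of 15 tested members were above 0. A gene can pass the filter through the aged libraries alone. With no filter the list had 21 tested members, of which 20 were above 0 and 4 were called, with a median of log2 1.08. In the main fit the other members of the list did not pass the test, among them Cd177, a surface protein of neutrophils, at 8.92, 11.7 and 11.7 against 3.44 and 0.491 (adjusted p = 0.150), and Lyz1, a lysozyme (adjusted p = 0.153).

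Of the primary granule genes, Mpo (NM_010824), myeloperoxidase, was at 34.4, 51.6 and 54.6 in the aged mice, where young spleen had 3.17 and 1.96 (log2 3.72, SE 0.39, adjusted p = 1.23e-05). Prtn3 (NM_011178), proteinase 3, was at 15.9, 41.5 and 34.2 against 1.06 and 0.982 (log2 3.82, SE 0.49, adjusted p = 0.000138). In young mouse 2 each was at 1.6004, below every aged library. The value worth 1 read was 0.800 to 1.06 in the 3 young spleens, so the young levels of both genes rest on very few reads. Ctsg, the granule protease cathepsin G, was at 7.93, 17.6 and 12.6 against 2.12 and 0.982 and missed the threshold (adjusted p = 0.0696). The row named Elane, neutrophil elastase, did not follow them, at 359.8, 445.2 and 413.6 against 476.8 and 467.6 (adjusted p = 0.704). That row also held 159.9 to 200.4 in the hippocampus of aged mice, where Mpo ran from 0 to 4.43, so its signal was not limited to organs that hold neutrophil precursors. Elane is one of 7 tested members of the primary granule list, of which 2 rose and 5 were above 0, with a median of log2 0.30 that ran from 0.095 (without aged mouse 2) to 0.54 (without aged mouse 1).

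Genes of more mature neutrophils moved less evenly. S100a8 (NM_013650) and S100a9 (NM_009114), the subunits of the cytosolic calcium-binding protein calprotectin, rose. S100a8 was at 297.4, 463.2 and 319.6 against 83.6 and 101.1 (log2 1.93, adjusted p = 3.20e-05), and S100a9 at 360.9, 565.1 and 531.8 against 143.9 and 123.7 (log2 1.83, adjusted p = 3.93e-05). Fpr2, a receptor for formylated peptides, was at 30.4, 21.4 and 12.6 against 2.33 and 6.87 (adjusted p = 0.0598). Csf3r, the receptor for the growth factor G-CSF, overlapped, at 5.54, 20.1 and 13.5 against 14.8 and 24.4. Of 13 tested genes of this list, 2 rose, 8 were above 0 and the median was log2 0.34, against 0.01 over all genes. That median was 0.19 without aged mouse 3 and 0.50 without aged mouse 1. The counts of 2, 5 and 2 called genes in the 3 neutrophil lists were 2, 5 and 2 to 3 when any one library was left out. Prg2 (NM_008920), the major basic protein of eosinophil granules, rose as well, from 6.35 and 5.89 to 34.4, 42.8 and 30.0 (log2 2.34, adjusted p = 0.00148), the single call among 7 tested genes of mast cells, basophils and eosinophils.

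**Figure D1:**
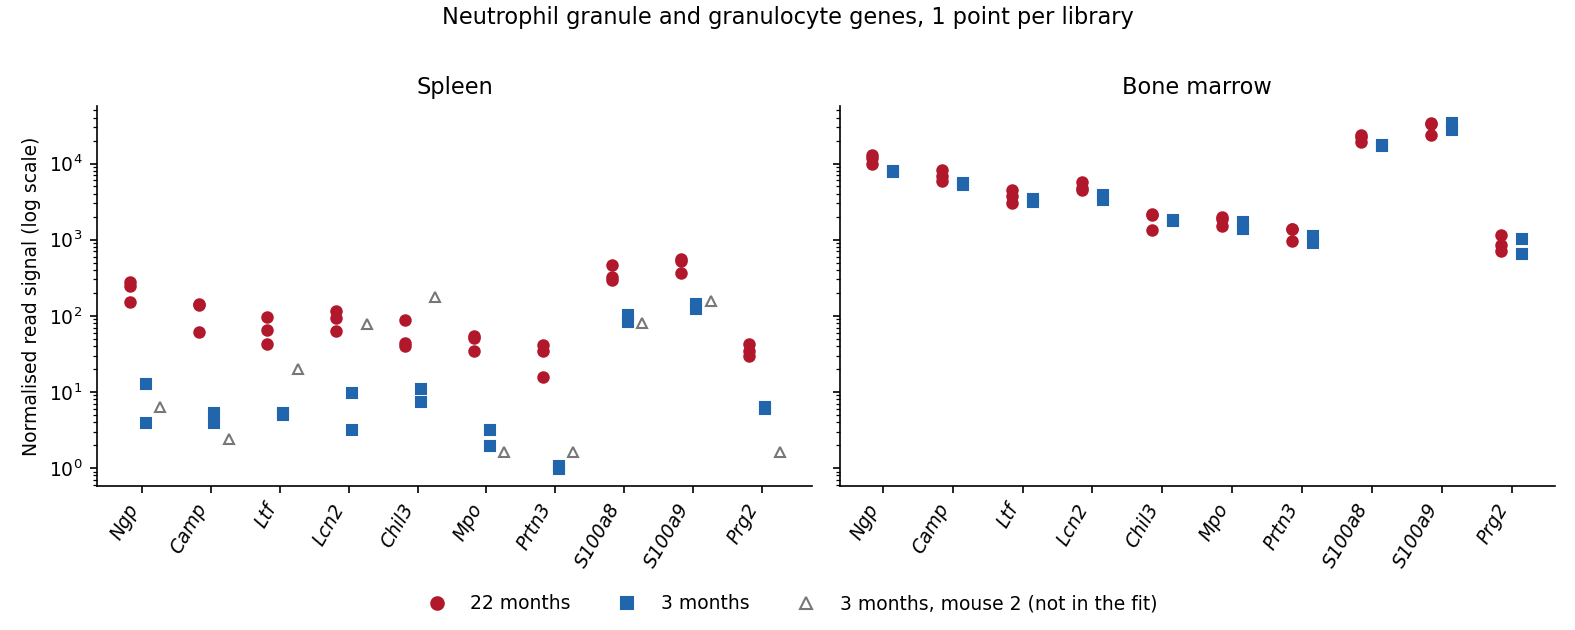
Normalised read signal (log axis) of 10 granulocyte genes in spleen (left) and bone marrow (right), 1 point per library. In spleen the 3 aged libraries (red circles) lie above young mice 1 and 3 (blue squares) for all 10 genes, while in bone marrow the age groups lie close together, as for Mpo at 1374 to 2010.

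Bone marrow, the main organ of blood formation in the adult, showed little change in the same genes. Camp was at 6819, 8300 and 5949 in aged bone marrow and at 5166 and 5539 in young mice 2 and 3, a change of log2 0.38 against 4.26 in spleen. Mpo was at 1842, 2010 and 1521 against 1374 and 1683, and S100a9 at 33120, 33663 and 24005 against 33734 and 27521. The aged and young marrow libraries overlap for Mpo and S100a9. For Camp and for Ngp, at 9807 to 12853 against 7691 and 7997 in young mice 2 and 3, every aged marrow library lay above the young ones. The difference between the organs was tested gene by gene as the change in spleen minus the change in bone marrow, and 11 of 10842 genes were called, all with the larger change in spleen (0.101%). The difference was log2 4.19 for Ngp (SE 0.56, adjusted p = 0.0403), 3.88 for Camp (adjusted p = 0.000768) and 3.49 for Mpo (SE 0.33, adjusted p = 1.20e-05). The other 8 were Ltf, Lcn2, Chil3, Prtn3, S100a8, S100a9, Prg2 and C130026I21Rik. The count fell to 4 without bone marrow of young mouse 2 and to 7 without that of young mouse 3. Gzma, a granzyme described with the T cell genes, had the same direction in marrow, with a change of log2 -1.80 there against -2.11 in spleen, and its difference was not called (adjusted p = 0.992).

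Mesenteric lymph nodes hold B and T cells without a red pulp. No gene of 10999 had a called difference between the spleen and the mesenteric node change (0%) with limma, and 381 had an unadjusted p under 0.05. Camp, whose change was log2 1.55 in the nodes, had the smallest p, with a difference of log2 2.71 (SE 0.60, adjusted p = 1.00). Ngp was also higher in aged nodes, at 12.8 to 27.0 against 0.975 to 2.81 in the young nodes of the fit. Mpo was at 1.88 to 2.57 against 0 to 0.936. With the mouse as a random effect, the difference was log2 2.06 for Ngp and 2.53 for Mpo. For S100a9 and S100a8 it was log2 -1.31 and -0.75, a larger rise in the nodes than in spleen. None of these differences was called. Of the 47 genes that rose in spleen, 44 had a change above 0 in these nodes and 42 in bone marrow. Of the 12 that fell, 9 were below 0 in the nodes and 7 in bone marrow. The median change of the 47 was log2 2.05 in spleen, 1.19 in the nodes and 0.68 in bone marrow. The libraries of the 3 organs carry the same mouse numbers, and these counts carry no test. The share of all tested genes above 0 is not given for the nodes or bone marrow, so the counts have no background there.

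**Figure D2:**
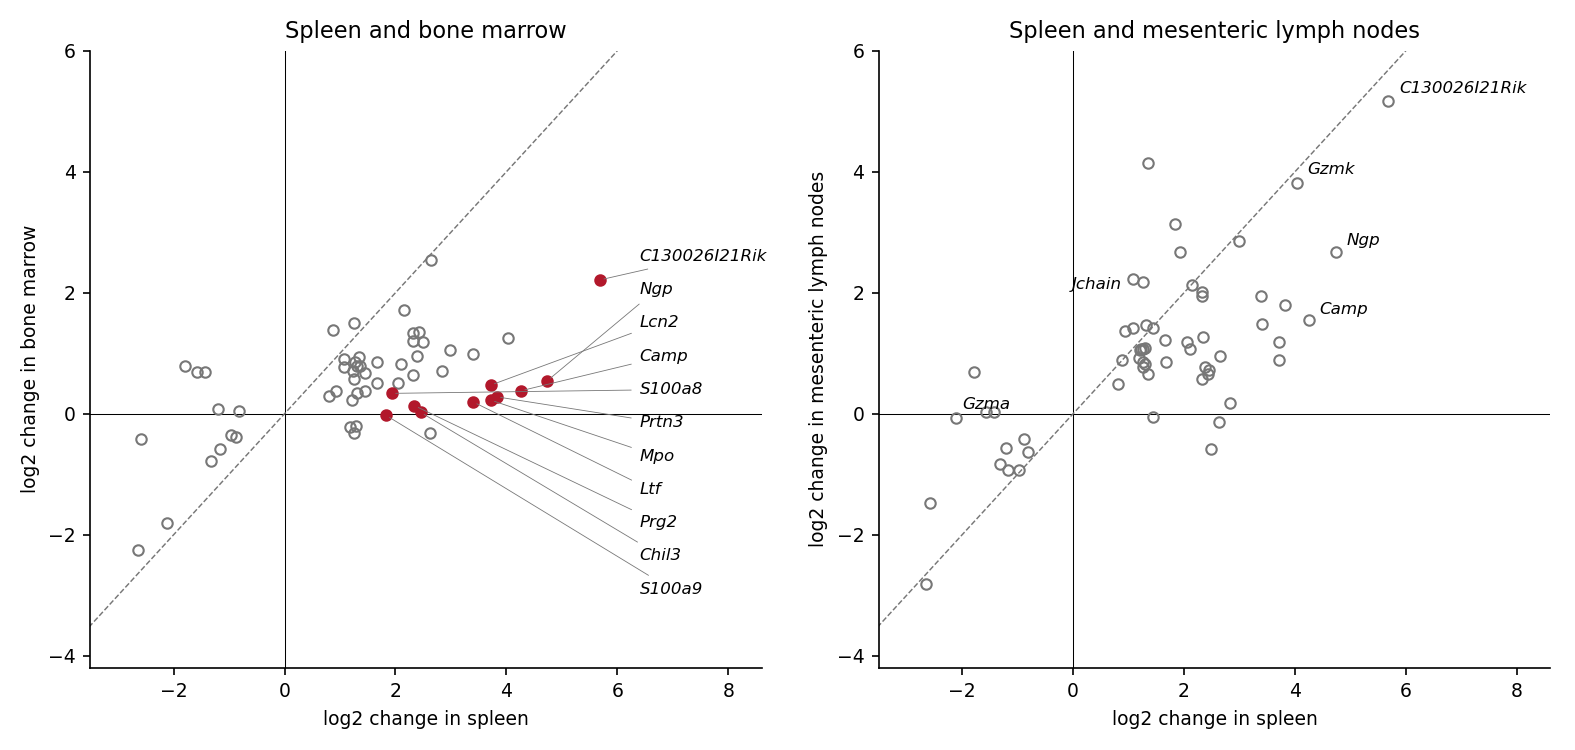
Log2 change of the 59 called genes in spleen (horizontal axis) against their change in bone marrow (left) and in mesenteric lymph nodes (right). Each point is a gene, the dashed line marks equal change, and the filled red points are the 11 genes whose spleen change differed from their bone marrow change. Ngp lies at 4.74 in spleen and 0.54 in bone marrow.

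C130026I21Rik (NM_001037909), a RIKEN gene with no well-described product, had the largest change in spleen. It was at 88.3, 63.1 and 61.3 in the aged mice, against 0.529 and 0.140 in the young, with young mouse 2 at 0.800 (log2 5.69, SE 0.40, adjusted p = 2.97e-08). The gap was not limited to spleen. Aged mesenteric lymph nodes had 58.4 to 127.8 against 0.975 to 1.25 in young mice 1 and 3, aged cervical nodes 47.0 to 60.9 against 0 in young mouse 3, and aged lung 7.40 to 17.5 against 0 to 0.505. Aged bone marrow had 14.0 to 24.9 against 3.26 and 2.55 in young mice 2 and 3. In hippocampus C130026I21Rik was at 0 to 0.206 in aged mice and at 0 in young mice 1 and 3. Als2cl (NM_001146059), which resembles the motor neuron protein alsin, was the converse case: it fell in spleen from 67.7 and 76.8 to 14.5, 5.03 and 17.99 (log2 -2.59, adjusted p = 0.00397). It was also at 28.9 to 41.1 in aged and 72.2 to 126.4 in young mesenteric nodes. The call for Als2cl ended without young mouse 1 or young mouse 3 (adjusted p up to 0.114).

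Genes of cytotoxic lymphocytes changed in both directions. Gzma (NM_010370), granzyme A, a serine protease of natural killer and cytotoxic T cells, was at 17.2, 11.3 and 20.4 in the aged mice, against 62.4 and 83.4 in the young. The groups did not overlap, and young mouse 2, at 78.4, was with the young mice. Gzma fell by 2.11 on the log2 scale (SE 0.32, adjusted p = 0.00148). Gzmk (NM_008196), granzyme K, carried mainly by T cells with antigen experience, was at 10.6, 23.9 and 16.8 in aged spleen and is listed at 0 in all 3 young spleens, so no fold is given (adjusted p = 0.00250). Ccl5 (NM_013653), a chemokine stored by memory T cells and natural killer cells, rose from 143.9 and 176.7 to 275.0, 324.7 and 281.8 (log2 0.87, adjusted p = 0.0474).

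Gzmk was called in 3 of the 5 fits with a library left out (adjusted p up to 0.114, without aged mouse 2 or 3), Gzma in 4 of 5 (adjusted p up to 0.114, without young mouse 3) and Ccl5 in 0 of 5. The cytotoxic list had 17 tested members, of which these 2 rose and 1 fell, and its median was log2 0.38 (0.24 without aged mouse 2). Among 13 tested receptors of natural killer cells none was called, and the median was log2 -0.50. It lay nearer 0 whichever library was left out, from log2 -0.39 to -0.050 (the last without aged mouse 1). Klrd1, the CD94 chain of a natural killer receptor, overlapped, at 3.97, 21.4 and 11.4 against 17.99 and 18.7. Gzmk was above the young level in mesenteric nodes too, at 9.39 to 40.8 in aged mice against 0 to 0.975, whereas Gzma there ran from 11.7 to 22.0 against 14.0 to 17.6.

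Among T cell genes, Dapl1 and Cd8b1 fell and Tigit, Ikzf2 and Sostdc1 rose in aged spleen. Dapl1 (NM_029723), a gene of naive T cells, fell from 20.1 and 20.6 to 3.97, 3.78 and 0.600 (log2 -2.64, adjusted p = 0.0422), and its change was log2 -2.82 in mesenteric nodes and -2.25 in bone marrow. Cd8b1 (NM_009858), the beta chain of the CD8 coreceptor, fell from 83.6 and 59.9 to 25.1, 34.0 and 24.6 (log2 -1.33, adjusted p = 0.0343). Its partner Cd8a was at 9.25, 20.1 and 23.4 against 58.2 and 39.3, apart from the young mice but not called (adjusted p = 0.0907). Cd4, the coreceptor of helper T cells, overlapped, at 44.9, 73.0 and 78.5 against 72.0 and 58.9. Young mouse 2 had 32.0 for Cd8b1, inside the aged range, in a library where Cd3e was at 40.9, below every other spleen.

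Of 19 tested naive T cell genes, 17 were below 0 with a median of log2 -0.45, and Dapl1 was the 1 that fell. In 8 of the 19 every aged library lay below young mice 1 and 3, a pattern that 13.4% of all tested genes showed. Over all tested genes, 50.9% were above 0. Tcf7, a factor of naive and memory T cells, was at 59.5, 36.5 and 48.6 against 91.0 and 77.5 (adjusted p = 0.249). Ccr7, the homing receptor for the T cell zone, was at 84.6, 84.3 and 90.5 against 114.3 and 149.2 (adjusted p = 0.352). The list's median stayed between log2 -0.55 and -0.28 with any one library left out.

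Tigit (NM_001146325), an inhibitory receptor of regulatory and exhausted T cells, was at 21.2, 17.6 and 12.5 in the aged mice, against 2.12 and 2.94 in the young (log2 2.32, adjusted p = 0.0218). Ikzf2 (NM_011770), the factor Helios of regulatory T cells, rose from 3.17 and 3.93 to 23.8, 15.1 and 18.1 (log2 2.10, adjusted p = 0.0257). Sostdc1 (NM_025312), a secreted BMP and Wnt antagonist that follicular helper T cells also make, rose from 0 and 1.31 to 6.61, 18.9 and 11.99 (log2 2.99, adjusted p = 0.0498). These were the 3 called of 19 tested genes of regulatory, follicular helper and exhausted T cells, and the list's median was log2 0.77. With the filter of 20 reads described below, 7 members of the list were tested, 4 were above 0, none was called and the median was log2 0.28. Pdcd1, the inhibitory receptor PD-1, was at 10.6, 25.2 and 28.8 against 2.12 and 7.85 without passing the test (adjusted p = 0.105), and so was Ctla4, at 10.6, 7.55 and 24.0 against 4.23 and 1.96 (adjusted p = 0.213). The count of 3 was 0 to 1 when any one library was left out, and the list's median was then log2 0.54 to 0.86.

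**Figure D3:**
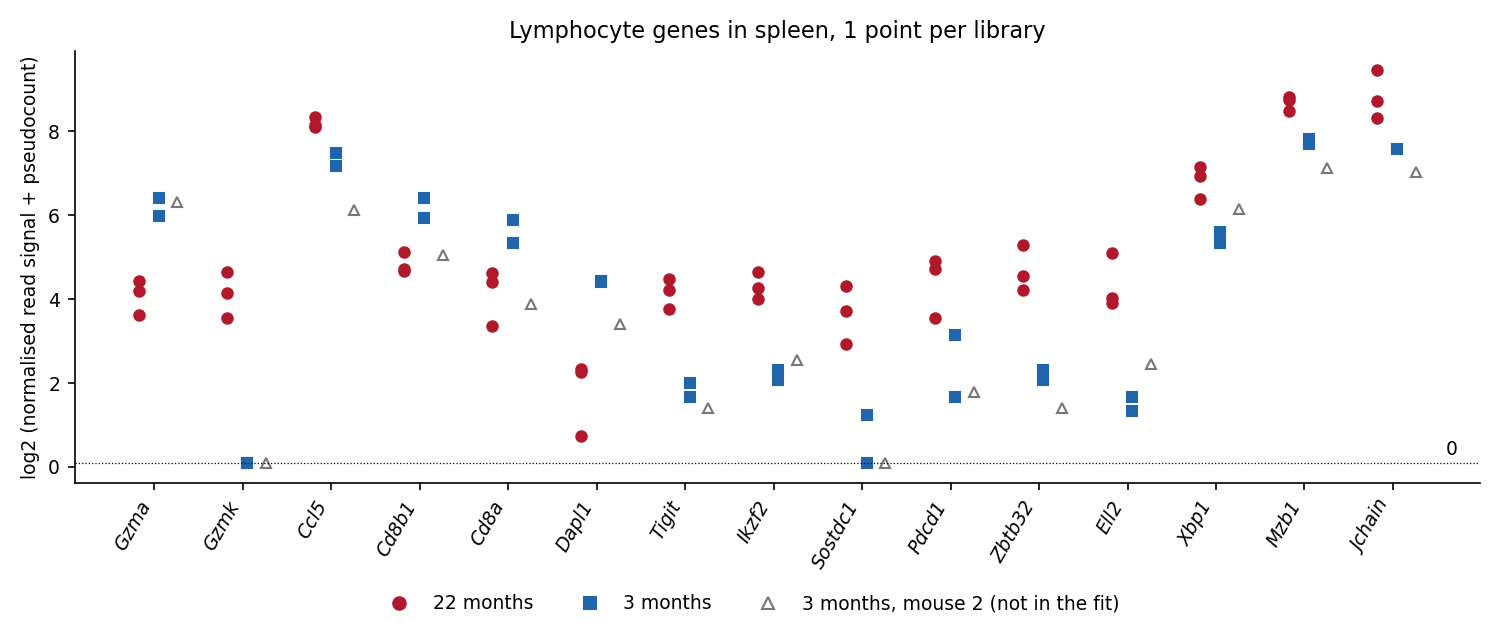
Log2 of the normalised read signal plus the pseudocount of 1.06 for 15 lymphocyte genes in spleen, 1 point per library, with the dotted line at a signal of 0. Aged libraries (red circles) lie above the young (blue squares) for Gzmk, Tigit and Zbtb32 and below them for Gzma, Cd8b1, Cd8a and Dapl1, and Gzmk sits on the dotted line in all young mice.

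Of 21 tested plasma cell genes 7 rose in aged spleen, 20 were above 0, and the median was log2 1.08. Xbp1 (NM_013842), the factor that expands the secretory pathway, was at 140.1, 120.8 and 82.7 in the aged mice, against 47.6 and 39.3 in the young (log2 1.35, adjusted p = 0.0125). Jchain (NM_152839), which joins IgM and IgA into polymers, was at 699.3, 419.1 and 320.2 against 189.4 and 190.4 (log2 1.25, adjusted p = 0.0474). Aged mouse 1 had the highest Xbp1 and Jchain, yet the other aged mice also lay above all young libraries in the fit.

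Ell2, an elongation factor that favours the secreted form of immunoglobulin, rose from 2.12 and 1.47 to 33.0, 13.8 and 15.3 (log2 2.84, adjusted p = 0.00586). Mzb1, a chaperone of antibody assembly, rose by log2 0.93 (adjusted p = 0.0236), Ssr4, a part of the translocon, by log2 1.27 (adjusted p = 0.0245), Slpi, a secreted protease inhibitor, by log2 1.08 (adjusted p = 0.0462) and Txndc5, a disulfide isomerase, by log2 1.07 (adjusted p = 0.0474). The count of 7 was 0 without aged mouse 1, 4 without aged mouse 2, 9 without aged mouse 3, 1 without young mouse 1 and 0 without young mouse 3. The list's median moved less, between log2 0.88 and 1.26. Among the other settings described below, no plasma cell gene was called with young mouse 2 added, with no filter or with no trend. The count was 2 with the spread from all tissues, 3 with the filter of 20 reads and 9 with the replicate block. Of 20 tested chaperones of the endoplasmic reticulum, 19 were above 0 and none was called. Hspa5, the main chaperone of that compartment, was at 608.1, 568.9 and 498.2 against 401.1 and 350.4 (adjusted p = 0.245).

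Zbtb32 (NM_021397), a repressor found in B cells of aged mice and in memory B cells, rose from 3.17 and 3.93 to 22.5, 17.6 and 38.4 (log2 2.49, adjusted p = 0.00539), with a call in 2 of the 5 fits with a library left out (adjusted p up to 0.0833, without aged mouse 1, aged mouse 3 or young mouse 1). It was the 1 call among 10 tested genes of age-associated B cells, a subset that accumulates in old mice, and the list's median was log2 0.68. Itgax, the integrin CD11c that marks this subset and dendritic cells, was at 92.5, 88.1 and 58.2 against 38.1 and 37.3 and was not called (adjusted p = 0.101). None of 23 tested genes of B cell identity was called, and their median was log2 -0.15 (0.021 without aged mouse 1). None of the 10 genes of marginal zone B cells was called, although 9 were below 0 with a median of log2 -0.45 (-0.30 without aged mouse 2 or young mouse 3). Their summed level was 504.7 to 670.7 in the aged mice and 790.9 and 800.7 in young mice 1 and 3, while young mouse 2, at 558.1, was inside the aged range. Cr2, complement receptor 2, was at 62.1, 113.3 and 120.5 against 153.5 and 164.9 (adjusted p = 0.304). None of 6 germinal centre genes was called, while 5 were above 0 with a median of log2 0.64 (0.47 without young mouse 3). Their summed level was 166.1 to 246.2 in the aged mice, 122.8 and 120.7 in young mice 1 and 3 and 113.0 in young mouse 2.

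Gpnmb, Cd5l and Fcgr4, genes of macrophages and monocytes, rose. Gpnmb (NM_053110), a lysosomal glycoprotein of lipid-laden macrophages, was at 9.25, 18.9 and 28.2 in the aged mice, against 1.06 and 2.94 in the young (log2 2.64, adjusted p = 0.0212). Young mouse 2, at 11.2, lay inside the aged range, and the adjusted p was 0.374 with it added. Cd5l (NM_009690), a protein secreted by red pulp and other tissue macrophages, rose from 48.7 and 95.2 to 175.8, 139.7 and 179.3 (log2 1.25, adjusted p = 0.0236). They were the 2 calls among 24 tested red pulp macrophage genes, whose median was log2 0.04. Spic, a defining gene of the type, overlapped between the ages, at 87.9, 47.2 and 57.9 against 86.2 and 55.5, and so did Slc40a1, the iron exporter ferroportin, at 167.9, 150.4 and 142.7 against 160.9 and 145.3. Hmox1, which opens the haem ring, overlapped too (adjusted p = 0.880).

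Fcgr4 (NM_144559), an activating receptor for IgG, rose from 32.8 and 35.3 to 83.3, 88.1 and 95.9 (log2 1.36, adjusted p = 0.00740), the 1 call among 16 tested monocyte genes. Of these 16 genes 14 were above 0, with a median of log2 0.60 (0.46 without young mouse 1). Ccl8 (NM_021443), a chemokine of the monocyte-attracting group, was at 10.6, 7.55 and 12.6 in aged spleen and is listed at 0 in young mice 1 and 3 (adjusted p = 0.0474). It was the 1 call among 14 tested genes of senescence and secreted inflammation, where Cdkn2a, the cell cycle inhibitor locus that rises in senescent cells, was below the filter, at 2.64, 1.26 and 5.40 in aged spleen and listed at 0 in the 3 young ones. Wfdc17, a secreted antiprotease of myeloid cells named here after its values were seen, was at 51.6, 50.3 and 52.2 against 8.47 and 8.83 (log2 2.43, adjusted p = 0.000144), with young mouse 2 at 8.002. Calls for Gpnmb, Cd5l and Fcgr4 held in 2, 2 and 3 of the 5 fits with a library left out (adjusted p up to 0.303, 0.664 and 0.176), and that for Ccl8 in 0. Without aged mouse 2, aged mouse 3 or young mouse 1 Gpnmb was lost, without aged mouse 1, aged mouse 3 or young mouse 1 Cd5l, and without young mouse 1 or 3 Fcgr4.

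Red cell genes varied between animals of one age. Klf1, the master factor of red cell precursors, was at 93.9 in aged mouse 1 against 20.1 and 8.99 in the other aged mice and 22.2 and 6.87 in the young. Alas2, the first enzyme of haem synthesis in red cells, was at 486.5, 91.9 and 340.6 against 189.4 and 141.4. Hbb-bs, a beta globin, was at 17992, 4871 and 13978 against 7842 and 5340. In the main fit, none of the 18 tested haem and globin genes, 19 membrane genes and 29 factors and enzymes of red cells was called. Of the haem and globin genes 16 were above 0, with a median of log2 0.57 (0.00027 without aged mouse 1). Without aged mouse 2, 2 of them were called higher. The replicate block described below, a term for each mouse number, called 8, 5 and 7 genes of these lists higher and none lower. Whether the numbers pair the samples is not settled. Summed over erythroid membrane genes, aged mouse 1 had 1992, aged mice 2 and 3 had 365.2 and 527.6, and the young mice 784.3 and 271.6. The medians of the membrane and the factor lists were log2 0.72 and 0.43 in all libraries, and they turned to -0.15 and -0.08 without aged mouse 1 and to -0.098 and -0.12 without young mouse 3. Without young mouse 1 they were 1.42 and 0.99.

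Proliferation genes also varied, with a sum of 2508 in aged mouse 1, 1001 and 1054 in aged mice 2 and 3, and 1100 and 750.2 in young mice 1 and 3. Of 47 tested members 40 were above 0, with a median of log2 0.51 that was 0.067 without aged mouse 1 and 0.25 without young mouse 3. Mki67, a marker of cycling cells, was at 130.2, 56.6 and 48.3 against 59.6 and 22.6. The list had 1 called gene, Racgap1, which organises the division furrow (log2 2.32, adjusted p = 0.00397), and the call ended without aged mouse 1 or young mouse 1 (adjusted p up to 0.0833). Among 25 tested genes of megakaryocytes and platelets, Ppbp (NM_023785), a platelet chemokine precursor, rose from 45.5 and 54.0 to 129.5, 93.1 and 155.3 (log2 1.30, adjusted p = 0.0135), with a call in 1 of the 5 fits with a library left out (adjusted p up to 0.303; the exception was the fit without aged mouse 2). Pf4, another platelet chemokine, overlapped, at 91.2, 35.2 and 98.3 against 38.1 and 31.4. Aged mouse 1, high in red cell and proliferation genes, was the lowest aged library for Ngp, Camp, Ltf, Lcn2, Chil3, Mpo, Prtn3, S100a8 and S100a9.

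**Figure D4:**
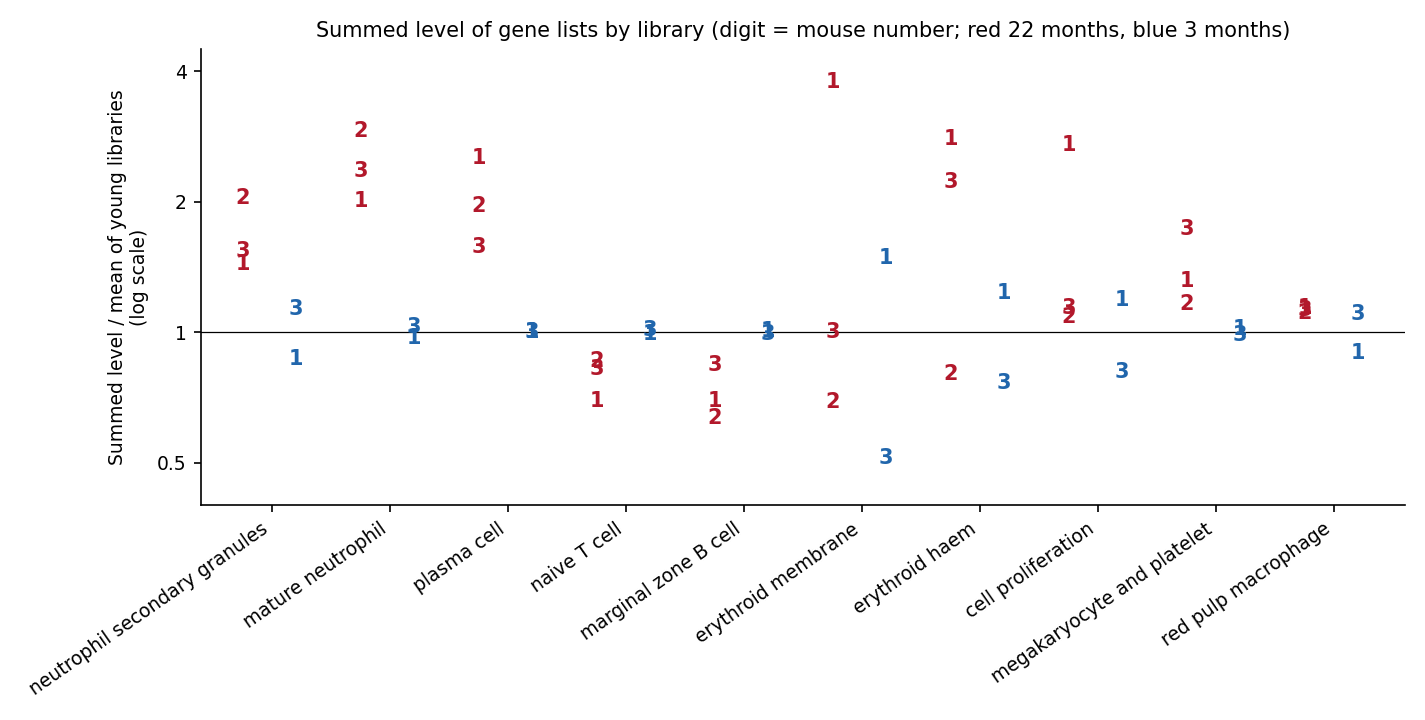
Summed level of 10 gene lists in the 5 spleen libraries of the fit, divided by the mean of young mice 1 and 3 (log axis), with the digit giving the mouse and the colour its age. Aged mouse 1 stands above the others for erythroid membrane genes (1992 against 271.6 to 784.3), while all 3 aged mice lie above young mice 1 and 3 for plasma cell genes and below them for naive T cell and marginal zone B cell genes.

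Sparc, Npnt and Igfbp7, genes of the extracellular matrix and vessels, fell in aged spleen. Sparc (NM_009242), a collagen-binding matrix protein, fell from 332.8 and 280.7 to 109.7, 124.0 and 183.5 (log2 -1.17, adjusted p = 0.0159), the 1 call among 24 tested genes of collagens and matrix. Npnt (NM_001029836), a basement membrane ligand of integrins, fell from 94.3 and 105.0 to 27.8, 18.9 and 42.0 (log2 -1.79, adjusted p = 0.00443). Igfbp7, an IGF-binding protein of vessels, fell from 553.0 and 508.5 to 325.9, 265.6 and 312.4 (log2 -0.82, adjusted p = 0.0474). Dcn, the small proteoglycan decorin, pointed the other way, at 52.9, 109.5 and 78.5 against 29.6 and 35.3 (adjusted p = 0.0626). Of 12 tested genes of the smooth muscle in capsule and trabeculae, 11 were below 0 with a median of log2 -0.53 and none was called. Tagln, a contractile protein, was at 68.7, 41.5 and 142.1 against 164.0 and 199.3.

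The remaining called lower genes were Gm8221 and Apol7c, with log2 -1.58 and -1.43 and with young mouse 2 inside the aged range, Clcf1, a cytokine of the IL-6 family (log2 -1.21), Arhgef1, a guanine nucleotide exchange factor of lymphocytes (log2 -0.97), and Limd2 (log2 -0.88, with young mouse 2 below every aged library). Sparc, Npnt, Gm8221 and Apol7c lost their calls without aged mouse 1, young mouse 1 or young mouse 3, with adjusted p up to 0.385, 0.130, 0.3001 and 0.379. Gm8221 and Apol7c had close values in each library, and whether they share reads was not tested. The call for Cd8b1 was made in 1 of the 5 fits with a library left out, without aged mouse 2 (adjusted p up to 0.664 in the others). Dapl1 was called without aged mouse 2 and not without aged mouse 1 or 3 (adjusted p up to 0.104), and it fell below the filter without young mouse 1 or young mouse 3. Those of Tigit, Jchain, Ssr4, Slpi and Txndc5 were made without aged mouse 3 only (up to 0.234, 0.454, 0.456, 0.467 and 0.570), and that of Ikzf2 without aged mouse 2 only (up to 0.272). Arhgef1 was called without aged mouse 2 or 3, and Sostdc1, Igfbp7, Clcf1, Limd2 and Ccl5 lost their calls in all 5 such fits.

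None of 31 tested genes of the type I interferon response and none of 20 of the interferon gamma response was called, and their medians were log2 -0.02 and 0.19. The second was 0.053 without aged mouse 2 and 0.31 without aged mouse 1. Isg15, a ubiquitin-like protein induced by interferon, was at 112.4, 32.9 and 57.6 against 44.4 and 40.2. Rsad2, the antiviral enzyme viperin, was at 68.7, 47.8 and 71.3 against 36.0 and 20.6 (adjusted p = 0.105). None of the 12 MHC class II genes or of the 16 complement genes was called. Cd74, the class II chaperone, was at 5273, 5178 and 5109.5 against 5667 and 5842.

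**Figure D5:**
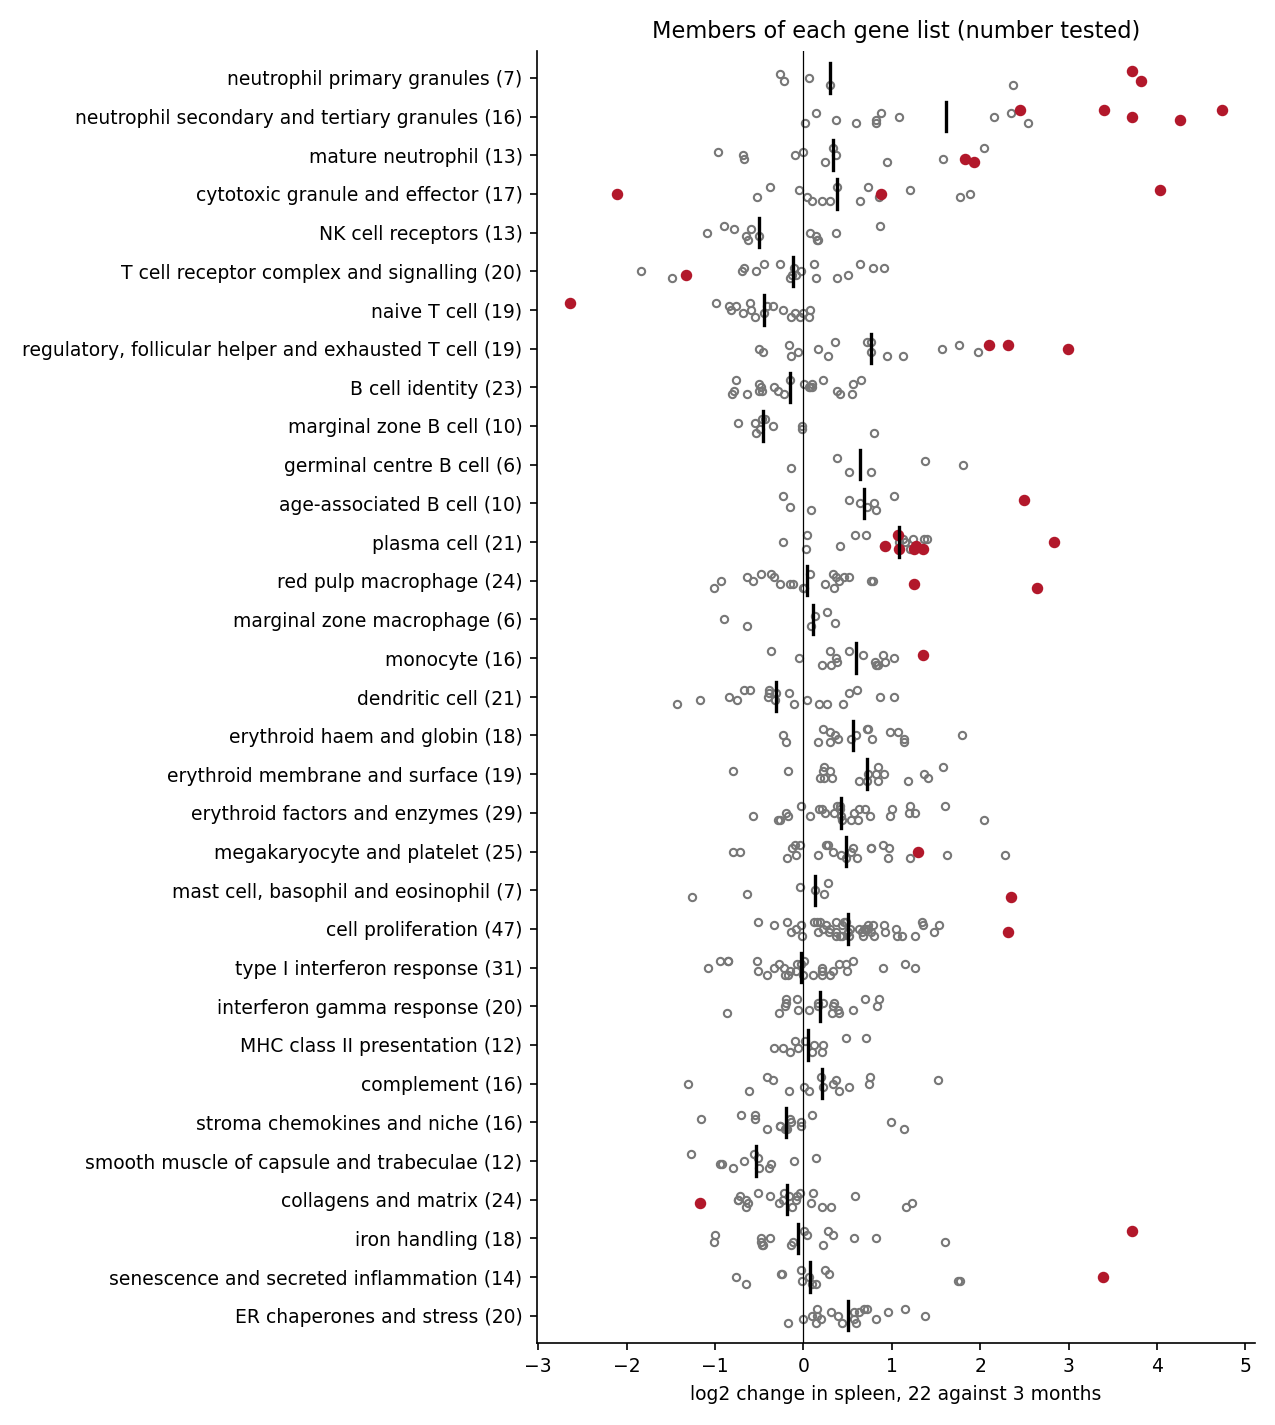
Log2 change in spleen of the tested members of 33 gene lists (number tested in brackets), with called genes in filled red, other members as open grey circles and the list's median as a bar. Secondary and tertiary granule genes have a median of 1.62 and plasma cell genes of 1.08, against 0.01 over all genes tested.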

How the data were processed

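The deposited values are a signal: judged from the values, they hold weighted reads per RefSeq transcript divided by 1 factor per library by the authors. The submitters' processing notes name TopHat, an aligner, and the build mm9, without the counting tool or the scaling. Of the values above 0 in a spleen library, 78.9% to 83.3% lay within 0.001 of a whole number of reads, so whole counts were not recovered. RNA was extracted with miRNeasy, per the labels' protocols. The transcript with the highest mean stood for its gene.

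Groups came from the labels. limma 3.58.1 (R 4.3.3, robust empirical Bayes with a trend) was fitted to log2 of the value plus 1.06, the value worth 1 read in the middle library. A gene was tested where at least 2 libraries exceeded 5 times that value of 1.06, and the filter of 20 reads was set likewise. The same cut on the signal served every library, although the value worth 1 read ran from 0.600 in aged mouse 3 to 1.32 in aged mouse 1. A gene was called where the two-sided p, adjusted by Benjamini-Hochberg, was under 0.05. Fold changes are on this log2 scale, which understates the change of low genes. Differences between tissues are contrasts of the age changes. The script was tested on simulated data. The members and the gene lists were chosen with earlier results of these data known. Named genes are the 12 largest called changes in each direction, 4 members per described list, 20 genes always named and the 5 smallest p in each direction of the contrasts; others were named after their values were seen, and some that the rule names are not reported here. The table has 1 column with no listed sample, which was not used.

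The alternatives were young mouse 2 added, pancreas genes kept, quantile or median scaling, other pseudocounts and filters, no trend, a replicate block, the spread from all tissues, the mouse as a random effect and leaving out each library.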

Additional observations from a re-analysis of the deposited data

Results flagged for a closer look

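The change with age differed between spleen and bone marrow for 11 genes, by a test of the difference itself (limma, Benjamini-Hochberg adjusted over 10842 genes, 0.101% called). The log2 change in spleen minus that in bone marrow was 4.19 for Ngp, 3.88 for Camp, 3.54 for Prtn3, 3.49 for Mpo, 3.47 for C130026I21Rik, 3.24 for Lcn2, 3.21 for Ltf, 2.43 for Chil3, 2.21 for Prg2, 1.86 for S100a9 and 1.59 for S100a8. The comparison sets spleens of young mice 1 and 3 against bone marrow of young mice 2 and 3.

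The spleen library of young mouse 2, which the main comparison leaves out, carried genes of other organs. Its summed level of lung genes was 41117, where the other young spleens had 344.1 and 345.3, and its summed level of pancreas genes was 23251, where young mouse 1 had 125.9 and young mouse 3 had 7951.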

How the results depend on the processing

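The 2 young and 3 aged libraries are the main limit: in fits that left out a young library, the lone young sample was assumed to vary like the aged ones. Against 47 higher and 12 lower genes, the fit with young mouse 2 added called 15 and 3, no filter 12 and 1, no trend 9 and 0, and the spread from all tissues 23 and 2; a filter of 20 reads called 24 higher genes. Leaving out each library in turn gave 16 to 39 higher and 1 to 14 lower genes. Of the 59 genes, 4 (C130026I21Rik, Camp, Mpo and Ngp) were called in all 16 settings. The pseudocount, scaling and pancreas settings kept the count within 1.5 times.

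The replicate block called 105 higher and 25 lower genes, 57 of them shared with the 59. Same-numbered aged and young libraries had deviations correlated at 0.154 for mouse 1 and 0.0384 for mouse 3. With 2 young libraries, whose deviations mirror each other, these values cannot settle whether the numbers pair the samples.

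For the bone marrow difference, quantile scaling called 7 higher genes, and leaving out each library gave 4 to 14 higher and 0 to 1 lower genes. For the mesenteric node difference, leaving out each library gave 0 to 2 higher and 0 lower genes (2 without the nodes of young mouse 1); the mouse as a random effect moved neither count by over 1.5 times.

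Of the genes reported under the naming rule, 9 uncalled ones turned sign somewhere, all with adjusted p of 0.823 or more. With young mouse 2 added, Cd74 was at log2 0.26, Hp at -0.59, Spic at 0.26 and Hmox1 at 0.23. Slc40a1 was at -0.038 with quantile scaling and -0.012 with median scaling, and Spic at 0.044 with the replicate block. With a library left out, Spic ranged from -0.47 to 0.16, Slc40a1 from -0.069 to 0.077, Nr1h3 from -0.046 to 0.31, Prg3 from -0.46 to 0.93, H2-Eb2 from -0.023 to 1.43 and Trim58 from -0.040 to 1.64. The cause was not tested. At this depth, genes near 1 read, such as Gzmk in young spleen, are the least precise.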
